A study of Mus musculus with 12 samples.

Results

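Apol7c and 5 relatives, Apol7b, Apol7e, Apol9a, Apol9b and Apol10b, are apolipoprotein L genes of the mouse, and their read counts were followed in splenic B cells after injection of a CpG DNA, of the drug IM156, or of both. They were taken by gene symbol and make up 6 of the 23282 genes in the deposited count table, which holds 13 genes with an Apol symbol in all. Apol7c was proposed for its lower count after CpG DNA than in untreated controls. The genes were thus selected on the counts of ODN and control libraries. Every comparison of them that uses these libraries is given as a description. They are tested in ODN+IM156 against IM156, which compares neither group, although the fit estimates the spread over all 12 libraries.

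Apolipoproteins L are membrane-active proteins that, unlike most apolipoproteins, act largely inside cells. The human relative APOL1 lyses trypanosomes, and several human and mouse family members are induced by interferons. In mouse dendritic cells APOL7C is known to insert into phagosome membranes and rupture them, which releases ingested antigen for cross-presentation, and mouse APOL9 proteins are known as interferon-induced antiviral factors. The roles of Apol7b, Apol7e and Apol10b are less well described.

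The 12 libraries, 3 per group, came from splenic B cells of wild-type C57BL/6 mice aged 7 weeks, which the series description calls lupus-prone. Mice of the ODN+IM156 group were injected intraperitoneally with 50 µg of the class B CpG-ODN 1826, an agonist of the endosomal receptor TLR9, on day 1 and day 3, and with IM156, an inhibitor of oxidative phosphorylation, on day 0 and day 2 (30 mg/kg). The ODN group had only the injections of CpG-ODN, the IM156 group only those of IM156, and the control group neither; all spleens were taken on day 4. The labels state no vehicle, no sex, no batch and no number of animals per library, so p-values measure the spread between these libraries, which may be technical.

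Libraries held 9650775 to 11532525 counts, and 2 of them stood apart from the other libraries. ODN replicate 2 had 1.46% of its counts on the ribosomal RNA gene Rn45s, against 4.78% to 9.63% elsewhere, and ODN replicate 3 had 1 count of Xist, an RNA made from the inactive X chromosome, against 9701 to 13011. Markers of the labelled cell type were counted in every library. The 17 B-cell identity genes, such as Cd79a and Cd79b, summed to 14281 to 14681 CPM (read counts scaled to a common library size) in ODN+IM156 libraries and to 14217 to 15038 CPM in ODN libraries. The sums were 14464 to 14899 CPM in IM156 and 14195 to 15603 CPM in control. Such sums do not measure purity, and erythroid markers, for example, summed to 690 to 886 CPM in control.

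The 6 genes lie in 1 cluster of 11 Apol genes on mouse chromosome 15 (GRCm38, from Apol7a at 77388219 to the end of Apol8 at 77757003, a stretch of 369 kb). Promoter windows of 100 bases before and 20 bases from the annotated start are shown for the 4 genes with enough counts to describe by group, because they differ in a match to the interferon-stimulated response element (ISRE), a promoter site of many interferon-induced genes. Capitals mark the ISRE core, GAAA and GAAA parted by any 2 bases, which Apol7b lacks. Where the core occurs in these windows it lies on the opposite strand and so reads here as TTTC and TTTC parted by 2 bases. The sequences are from RefSeq (GRCm38.p6), written from 5′ to 3′ on the strand of the gene, and all 6 genes were matched by symbol.
Apol7c, chr15:77533296-77533415, minus strand: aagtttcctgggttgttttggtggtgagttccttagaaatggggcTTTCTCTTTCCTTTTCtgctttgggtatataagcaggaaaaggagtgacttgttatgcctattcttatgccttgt
Apol7e, chr15:77698789-77698908, plus strand: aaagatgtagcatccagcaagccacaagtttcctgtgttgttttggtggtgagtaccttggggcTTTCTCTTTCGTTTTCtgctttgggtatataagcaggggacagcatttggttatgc
Apol7b, chr15:77447441-77447560, minus strand: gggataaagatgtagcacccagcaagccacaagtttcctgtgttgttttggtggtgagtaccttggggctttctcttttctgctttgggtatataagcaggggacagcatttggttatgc
Apol10b, chr15:77596106-77596225, minus strand: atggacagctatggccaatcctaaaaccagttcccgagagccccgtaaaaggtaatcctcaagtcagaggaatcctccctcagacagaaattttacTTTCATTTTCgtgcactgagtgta

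The promoters of Apol7c and Apol7e carried not 1 ISRE core but 2 overlapping ones, 55 to 40 bases before the start of Apol7c and 36 to 21 bases before that of Apol7e. The same tandem core, GAAA 3 times over with any 2 bases between, stood 59 to 44 bases before the start of Apol9a and 37 to 22 bases before that of Apol9b. Apol10b had a single core that spans the start, from 4 bases before the start base to 5 bases after it. Apol7b had none: an alignment of its promoter with that of Apol7e, 97.7% identical in all, placed a gap of 5 bases in Apol7b at 30 to 26 bases before the Apol7e start, inside the Apol7e match. All these distances are from the RefSeq starts and depend on the annotation. In the GENCODE annotation Apol7e starts at 77698857, Apol9b at 77729039 and the minus-strand Apol9a at 77411135, each inside its tandem core. Promoters from 250 bases before to 50 bases after the RefSeq start were searched on both strands. The single core was found in 5 of the 6 genes and in 3.44% of 32851 mouse promoters. The tandem core, a motif chosen after the single matches had been seen, was found in 4 of the 6 and in 0.116% of all promoters. These promoters are alike in sequence, so their matches are not separate observations. Aligned bases were 100% identical between Apol9a and Apol9b (278 bases) and 90.6% between Apol7c and Apol7e (267 bases).

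**Figure D1:**
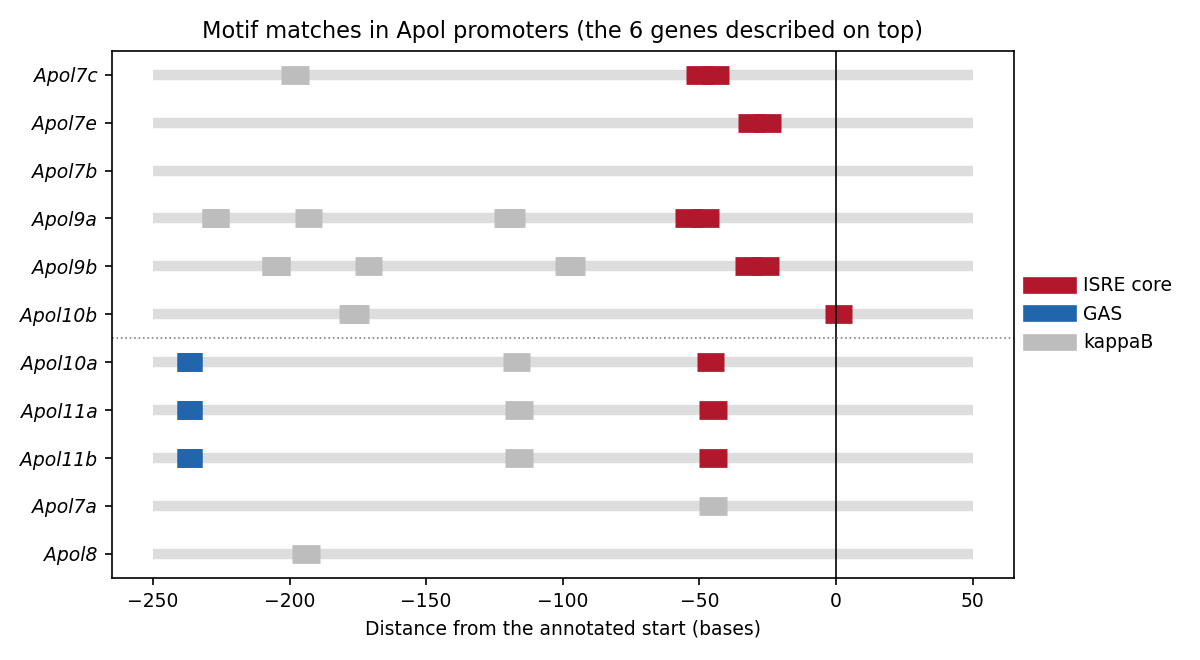
Matches to 3 motifs in promoters of 11 Apol genes, by distance in bases from the RefSeq start (vertical line), with the 6 genes described above the dotted line. Red marks the ISRE core, blue the GAS motif and grey the kappaB motif; red lies within 60 bases of the start wherever it occurs, and Apol7b has no match to any of the 3.

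Matches to 3 other motifs were searched on both strands. The GAS motif (TTC and GAA parted by any 3 bases), known from promoters of interferon-gamma-induced genes, matched in 0 of the 6 and in 8.3% of all promoters. The kappaB motif (GGG and CC parted by any 5 bases), read by NF-kappaB, matched in 4 of the 6 against 50.8% of all promoters, so that a match there is common. The composite site of PU.1 and IRF factors (GGAA and GAAA parted by any 2 bases) matched in 0 of the 6 and in 2.72% of all promoters. A match is a run of letters and not evidence of binding.

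Apol7c, the phagosome-rupturing protein of dendritic cells, was the most heavily counted of the 6, with 1587 counts over the 12 libraries. Replicates 1 to 3 had 91, 44 and 90 counts in ODN+IM156 and 49, 70 and 35 counts in ODN. They had 242, 218 and 162 counts in IM156 and 176, 177 and 233 counts in control. Every library with CpG-ODN was thus below every library without it, and this is also seen in the plot of Apol7c levels by library. In scaled libraries Apol7c averaged 7.07 ± 2.12 CPM in ODN+IM156, 4.82 ± 1.35 in ODN, 19.4 ± 5.22 in IM156 and 18.7 ± 3.41 in control (SD, n = 3 each). The order of means was therefore ODN, ODN+IM156, control and IM156; the lower 2 groups overlapped each other, as did the upper 2, and a gap lay between 8.59 CPM, the highest ODN+IM156 library, and 13.8 CPM, the lowest IM156 library.

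The effect of CpG-ODN given on top of IM156 shares no library with the comparison that chose Apol7c, and Apol7c fell there too. Its log2 fold change in ODN+IM156 against IM156 was -1.45 ± 0.2542 (SE), a mean 2.75 times lower, with an adjusted p of 0.002672 by edgeR's quasi-likelihood test with Benjamini-Hochberg adjustment over 11857 genes. Among all genes tested 2.47% were called at an adjusted p below 0.05 in either direction and 0.734% of all genes as lower, and of the 6 Apol genes 2 could be tested and 1 was called. The fold change stayed between -1.64 and -1.23 over 19 other ways of fitting, each of which called it. With only the libraries of these 2 groups fitted, it was -1.44 ± 0.2254 (SE), with an adjusted p of 0.0002921 by the same edgeR test. The authors' deposited table gives a ratio of 0.368 for the same comparison.

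Comparisons that use the ODN or control libraries are given for their values only. Apol7c after IM156 alone overlapped the controls, with a log2 fold change of 0.05 ± 0.2383 (SE) in IM156 against control. The sign turned to -0.05 without control replicate 2 and to -0.13 without IM156 replicate 1. In that comparison 0 of 11857 genes (0%) were called by edgeR, 439 had an unadjusted p below 0.05, and DESeq2 called 2.

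Apol7c in mice given both agents also overlapped that in mice given CpG-ODN alone. The log2 fold change in ODN+IM156 against ODN was 0.55 ± 0.2768 (SE), in a comparison where edgeR called 0.0675% of all genes. The ranges of 4.65 to 8.59 CPM in ODN+IM156 and 3.35 to 6.01 CPM in ODN overlapped. Without ODN replicate 3, the library with 1 Xist count and the lowest Apol7c level, the log2 fold change was 0.36, and without ODN replicate 2 it was 0.76.

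Both CpG-ODN groups stood below control. Apol7c had a log2 fold change of -1.95 ± 0.2645 (SE) in ODN against control and of -1.39 ± 0.2545 (SE) in ODN+IM156 against control. In ODN against control 3.25% of all genes were called as lower, and in ODN+IM156 against control 0.337% were; nothing is read from Apol7c beside these shares, since its lower level in ODN chose it. The first value was -1.75 without ODN replicate 3 and -2.15 without ODN replicate 2. The effect of CpG-ODN with IM156 minus its effect without IM156 was 0.50 ± 0.365 (SE) on the log2 scale.

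**Figure D2:**
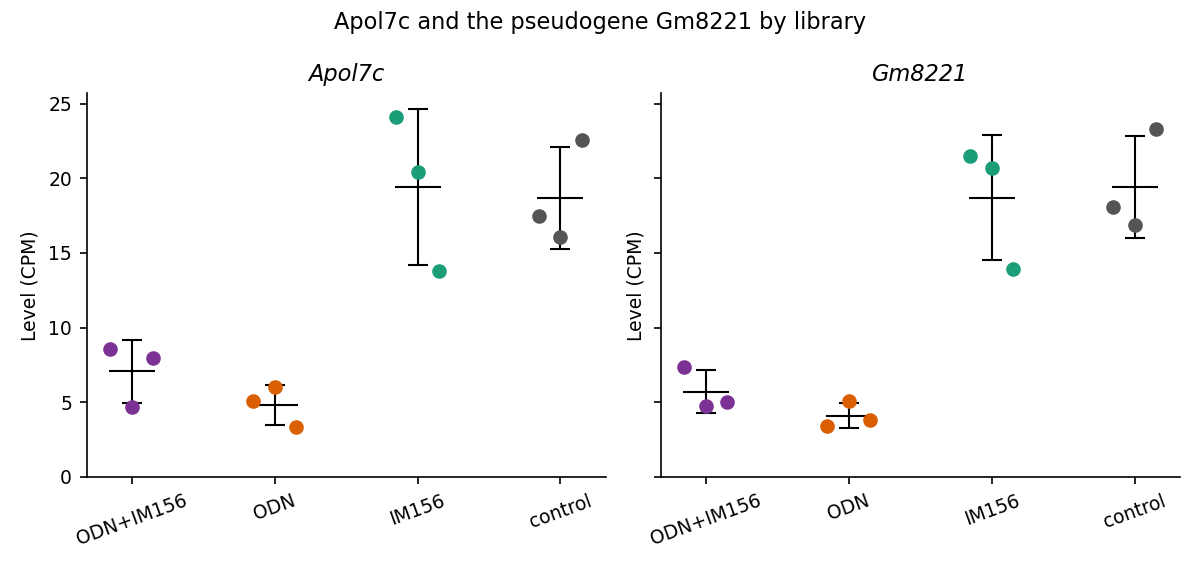
Level of Apol7c and of the pseudogene Gm8221 in each of 12 libraries, in CPM of the scaled library on a linear axis from 0; points are libraries, long bars the means and whiskers the SD of 3 libraries. Both genes lie below 9 CPM in the 6 libraries with CpG-ODN and above 13 CPM in the 6 without it.

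An unprocessed pseudogene of the same cluster, Gm8221, carried nearly the same counts. Gm8221 had 78, 45 and 57 counts in ODN+IM156 and 33, 59 and 40 in ODN, against 216, 221 and 163 in IM156 and 182, 186 and 241 in control. Per library it stood at 0.633 to 1.14 times the Apol7c count. Its log2 fold change in ODN+IM156 against IM156 was -1.70 ± 0.2288 (SE), with an adjusted p of 0.0001744 by edgeR's quasi-likelihood test. Over the 1110 bases of its annotated transcript (GENCODE, GRCm38) Gm8221 was 97% identical to Apol7c, and how reads that fit several places were counted is not given in the sources used here. At the 3′ end of the annotated transcripts, exact matches were counted for 451 windows of 50 bases in the last 500 bases. Of these, 37 of Apol7c occur in another gene of the group, all in Apol7a. For Gm8221, 96 occur in Apol7a, Apol7b or Apol7c. Windows with a mismatch were not counted, so these numbers cannot show how many reads fit both Apol7c and Gm8221. Whether reads of either were counted for the other was not tested, and the pair is not treated as separate observations.

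Apol7c and Gm8221 shared their pattern over the 12 libraries more closely than any other gene compared. Among 9429 genes that averaged 5 CPM or more, Pearson's r with Apol7c on the log2 CPM scale was highest for Gm8221 (0.972), followed by Sh3pxd2a (0.957), a podosome scaffold, and Scml4 (0.953), a Polycomb-like protein. Next came 9430038I01Rik (0.944), Dgke (0.940), a diacylglycerol kinase, Qrfp (0.938), a neuropeptide precursor, Rhob (0.933), a small GTPase, and 5830416P10Rik (0.926). The lowest values belonged to 1500012F01Rik (-0.954), 2410006H16Rik (-0.946), Gimap4 (-0.938), a lymphocyte GTPase, and Rpl7a (-0.937), a ribosomal protein. The 12 points fall into those with and those without CpG-ODN, so that any gene that differs between these takes a high value of either sign. Rhob, for example, averaged 17.8 ± 3.37 CPM in ODN+IM156 and 32.1 ± 4.15 CPM in IM156 (SD, n = 3 each).

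Apol7b and Apol7e, a pair of near-identical copies, had their highest counts in mice given both agents. Apol7e had 15, 9 and 18 counts in ODN+IM156 and 8, 1 and 3 in ODN, against 0, 7 and 4 in IM156 and 2, 5 and 2 in control. Apol7b had 12, 18 and 6 counts in ODN+IM156 and 5, 4 and 4 in ODN, against 1, 3 and 3 in IM156 and 1, 7 and 1 in control. For both genes every ODN+IM156 library was above every ODN library and every IM156 library, for Apol7b by as little as 0.532 CPM against 0.521 CPM in the nearest ODN library. The ODN+IM156 libraries also lay above all control libraries for Apol7e but overlapped them for Apol7b. Apol7e averaged 1.32 ± 0.332 CPM in ODN+IM156, 0.402 ± 0.387 in ODN, 0.332 ± 0.327 in IM156 and 0.282 ± 0.149 in control (SD, n = 3 each). Apol7b averaged 1.19 ± 0.687 CPM in ODN+IM156, 0.416 ± 0.0931 in ODN, 0.212 ± 0.098 in IM156 and 0.277 ± 0.31 in control (SD, n = 3 each).

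Neither copy passed the test in ODN+IM156 against IM156. Both fell under the filter on low counts, and in the fit without a filter the log2 fold change in ODN+IM156 against IM156 was 1.94 ± 0.9139 (SE) for Apol7e, with an adjusted p of 0.3416 by edgeR's quasi-likelihood test over 17399 genes. For Apol7b it was 2.40 ± 1.014 (SE), with an adjusted p of 0.2334 in the same edgeR fit. That fit called 3.75% of all genes in this comparison. An exact permutation test of the levels in ODN+IM156 against IM156, two-sided, gave p = 0.1 for each gene, the smallest value that 3 against 3 libraries allow. As a description, the log2 fold changes in ODN+IM156 against ODN were 1.73 ± 0.9053 (SE) for Apol7e and 1.49 ± 0.9488 (SE) for Apol7b.

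The reads of Apol7b and Apol7e cannot be told apart at the 3′ end that these libraries sequence. Of 451 windows of 50 bases in the last 500 bases of the transcript, 451 of Apol7e also occur in Apol7b and 448 of Apol7b also occur in Apol7e. The 3′ end of Apol7e is in addition overlapped on the opposite strand by Gm36329, an antisense gene, and the strand rule of the counting is not given in the sources used here. Apol7b and Apol7e are thus best read as 1 signal.

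**Figure D3:**
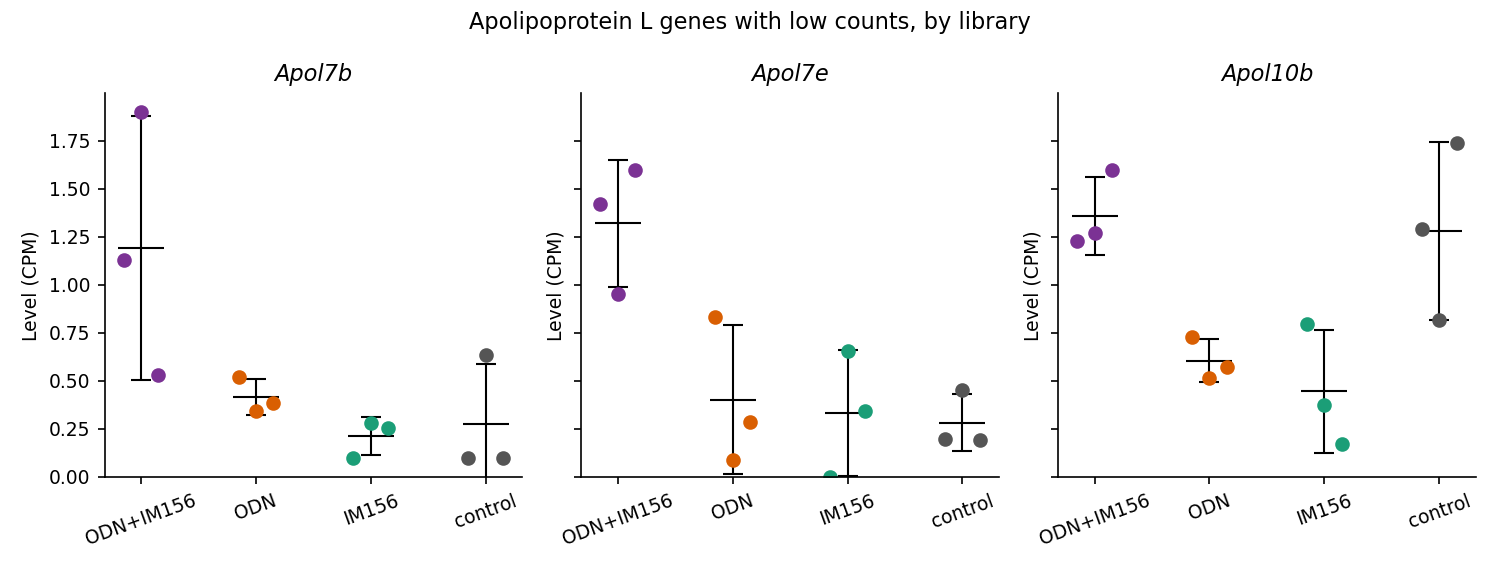
Level of Apol7b, Apol7e and Apol10b in each of 12 libraries, in CPM of the scaled library on a linear axis from 0; points are libraries, long bars the means and whiskers the SD of 3 libraries, cut at 0. The ODN+IM156 points of each gene lie above its ODN and IM156 points. For Apol10b the control points spread from below to above those of ODN+IM156.

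Apol10b followed neither pattern: it was high in mice given both agents and in untreated mice, and low after either agent alone. Apol10b had 13, 12 and 18 counts in ODN+IM156, 7, 6 and 6 in ODN, 8, 4 and 2 in IM156 and 13, 9 and 18 in control. It averaged 1.36 ± 0.202 CPM in ODN+IM156, 0.606 ± 0.11 in ODN, 0.447 ± 0.32 in IM156 and 1.28 ± 0.463 in control (SD, n = 3 each). The ODN+IM156 and control libraries overlapped each other and lay above every ODN and every IM156 library. The margin was thin for control replicate 2, at 0.817 CPM against 0.798 CPM in IM156 replicate 1. The gene passed the filter through the 5 libraries with 10 or more counts, all in ODN+IM156 or control.

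Apol10b did not pass the test either. Its log2 fold change in ODN+IM156 against IM156 was 1.62 ± 0.6105 (SE), with an adjusted p of 0.1977 by edgeR's quasi-likelihood test. In comparisons given as a description, it was 1.17 ± 0.5865 (SE) in ODN+IM156 against ODN and -1.52 ± 0.6138 (SE) in IM156 against control. The values were -1.07 ± 0.5897 (SE) in ODN against control and 0.09 in ODN+IM156 against control, the last of which turned to -0.15 without control replicate 2 and to -0.04 without ODN+IM156 replicate 3. Of the windows at the 3′ end of Apol10b, 0 of 451 occur as exact matches in another of the Apol genes. Windows with a mismatch were not counted, so reads shared with another gene were not tested for.

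Counted together, Apol7b, Apol7e and Apol10b were the 3 of the 6 genes whose ODN+IM156 libraries all lay above the IM156 libraries, and with the reads of Apol7b and Apol7e inseparable they stand for 2 signals. Of genes with 20 to 200 counts in all, 10.3% did so, and of all genes tested 12.8%. The same 3 genes lay wholly above the ODN libraries, against 7.63% of genes with 20 to 200 counts and 9.07% of all genes tested. Of the 6 genes Apol7c alone lay wholly below the IM156 libraries, against 11.8% of all genes tested, and Apol10b alone lay wholly below control in IM156, against 5.21% of genes with 20 to 200 counts. In ODN against control, Apol7c and Apol10b lay wholly below, where 11.3% of all genes tested and 6.84% of genes with 20 to 200 counts did so. Compared with control, the ODN+IM156 libraries of Apol7e lay wholly above and those of Apol7c wholly below, where 9.22% of genes with 20 to 200 counts and 9.12% of all genes tested did so. Nothing is read from the counts that use ODN or control libraries, since the genes were selected on these.

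**Figure D4:**
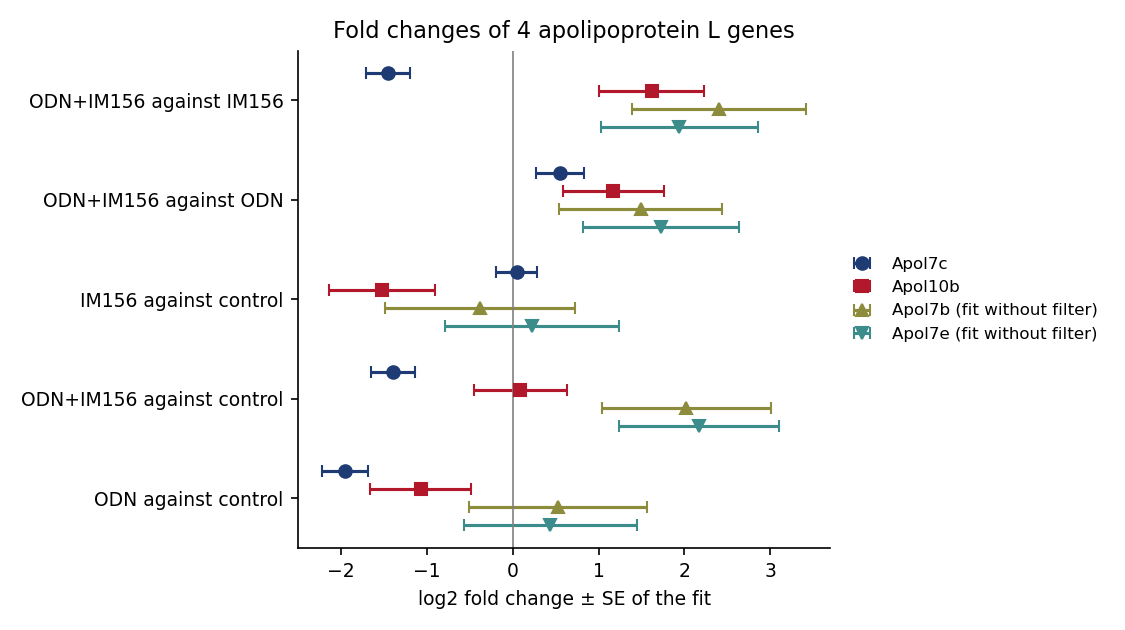
Log2 fold change of Apol7c, Apol10b, Apol7b and Apol7e in 5 comparisons of the groups, with the first-named group over the second; whiskers are the SE of the fit, and Apol7b and Apol7e come from the fit without a filter on low counts. Apol7c lies at -1.45 in ODN+IM156 against IM156, where the other 3 genes lie at 1.62 to 2.40.

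Apol9a and Apol9b, the antiviral pair, were close to undetected. Apol9b had 4, 0 and 5 counts in ODN+IM156 and 0, 2 and 3 in ODN, against 0, 1 and 1 in IM156 and 0, 2 and 2 in control, so that all groups overlapped. Apol9a had 4 counts in all, 1 in ODN+IM156, 1 in ODN, 2 in IM156 and 0 in control. The pair shares 187 of 451 windows at the 3′ end, and its promoters hold the same tandem ISRE core as that of Apol7c. At this depth no difference of either gene was detectable. Of the other 7 Apol genes none passed the filter: Apol7d, Apol6 and Apol11a had 0 counts in every library, which allows up to 3, and Apol11b had the most, 32 in all.

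The nearest tested genes beside the cluster were compared in the same way. In ODN+IM156 against IM156 edgeR called 0 of the 10 nearest, 5 on each side from Zfp7 to Ift27. Their log2 fold changes were -0.42 to 0.17. Of all genes tested 2.47% were called in this comparison, so 0 of 10 says little about the stretch. In ODN against control the neighbours Rpl8 (0.39) and Foxred2 (-0.53) were called by edgeR, in a comparison where 1255 of 11857 genes were called.

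Interferon-stimulated genes, to which several apolipoproteins L belong, rose in ODN+IM156 against IM156, in the opposite direction to Apol7c. Of 48 tested genes known to be induced by type I interferon, 18 were called higher and 0 lower, with a median log2 fold change of 0.59. Of all genes tested 1.74% were called higher, and the median over all of them was -0.00. The examples with the largest changes were Ifi44 (2.50 ± 0.2759 SE), Oasl2 (1.60 ± 0.2594), Oas2 (1.48 ± 0.2633) and Zbp1 (1.25 ± 0.1354), a sensor of nucleic acids. Ifi44 averaged 11.1 ± 0.412 CPM in ODN+IM156 and 1.96 ± 0.303 CPM in IM156 (SD, n = 3 each). Of 18 tested interferon-inducible GTPases, which attack the vacuoles of intracellular microbes, 14 were called higher and 0 lower, with a median of 1.28. Those with the largest log2 fold changes were Iigp1 (4.67 ± 0.4456 SE), Gbp10 (2.50 ± 0.3101), Tgtp1 (2.48 ± 0.1938) and Gbp6 (2.31 ± 0.2159). Against control the interferon-stimulated list rose less. Its median was 0.26 in ODN+IM156 (8 called higher, 1 lower, against 148 and 40 of all genes). The median was 0.12 in ODN (10 higher, 0 lower, against 870 and 385 of all genes). It was -0.23 in IM156, with 0 called, so the IM156 libraries stood slightly below control for this list. The GTPases had medians of 1.13, 0.66 and -0.19 in the same order. The ISRE core that Apol7c carries matched in 17 of 34 promoters of the interferon-stimulated list, and the tandem core in 4 of 34.

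**Figure D5:**
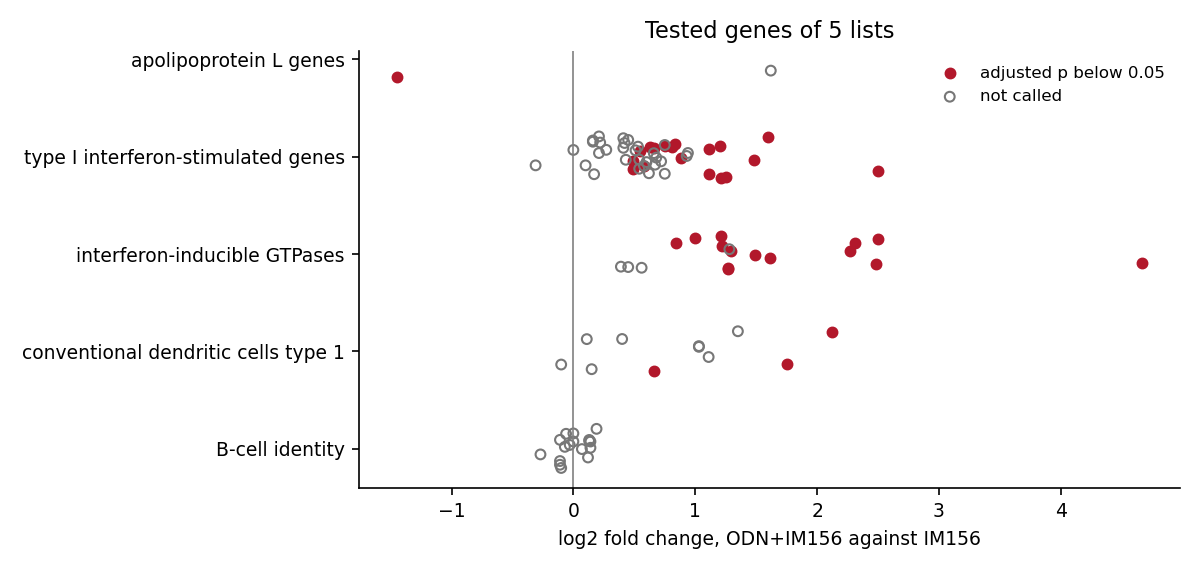
Log2 fold change of the tested genes of 5 lists in ODN+IM156 against IM156; each point is a gene, filled where its adjusted p was below 0.05 by edgeR, and vertical scatter within a list only separates points. Apol7c lies at -1.45, left of all points of the interferon lists, and Apol10b at 1.62 among them.

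Because APOL7C is known from type 1 conventional dendritic cells, markers of these cells were set beside it. Of 13 listed markers 12 were in the table and none of the 12 was at 0 in all libraries; their summed level was 810 to 886 CPM in ODN+IM156 and 690 to 798 CPM in IM156. Most of the sum lay on Wdfy4, at 501 ± 20.4 CPM in ODN+IM156 and 463 ± 35.9 CPM in IM156, and Snx22, at 162 ± 7.78 CPM in ODN+IM156 and 174 ± 5.2 CPM in IM156 (SD, n = 3 each), so that it says little of the markers counted less. Of 11 tested, 3 were called higher in ODN+IM156 against IM156 by edgeR (Xcr1, Naaa and Rab7b) and 0 lower, where 1.74% of all genes tested were called higher. Xcr1, a chemokine receptor that defines the type, averaged 19 ± 10.5 CPM in ODN+IM156 and 4.38 ± 0.767 CPM in IM156 (SD, n = 3 each). Clec9a, a receptor for dead cells, was not called and averaged 6.01 ± 3.2 CPM in ODN+IM156 and 2.98 ± 1.51 CPM in IM156. The marker sums were 805 to 892 CPM in ODN and 686 to 771 CPM in control.

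Markers of several other cell types, though not of all, moved with the same comparison. Summed platelet markers stood at 109 to 153 CPM in ODN+IM156 and 48 to 49.1 CPM in IM156, with 5 of 8 tested called higher. Monocyte and macrophage markers stood at 156 to 227 CPM in ODN+IM156 and 57.7 to 106 CPM in IM156, with 2 of 14 called higher. Their mean sums were 198 CPM in ODN+IM156 and 83.1 CPM in IM156. Much of that difference lay on Ly6c2, which averaged 78.6 ± 9.48 CPM in ODN+IM156 and 10.5 ± 1.14 CPM in IM156 (SD, n = 3 each). The sum thus says little of the other markers in that list. Erythroid markers stood at 76 to 148 CPM in ODN+IM156 and 101 to 578 CPM in IM156, with 3 of 9 called lower. Neutrophil (19.4 to 25.3 CPM in ODN+IM156, 2.69 to 6.82 CPM in IM156) and NK cell markers (11.2 to 17.8 CPM in ODN+IM156, 3.41 to 5.7 CPM in IM156) were higher in sum as well, with 2 of 3 and 3 of 5 tested called higher. Plasmacytoid dendritic cell markers stood at 55.3 to 61.1 CPM in ODN+IM156 and 54.5 to 60.4 CPM in IM156, with 0 of 4 called. T cell markers stood at 11.6 to 17.5 CPM in ODN+IM156 and 8.88 to 10.4 CPM in IM156, with 0 of 4 called. The median log2 fold change of those 4 was -0.33. Other conventional dendritic cell markers stood at 467 to 476 CPM in ODN+IM156 and 392 to 422 CPM in IM156, with 1 of 10 called higher. None of the listed genes in the table was at 0 in all libraries, and the part of these cells in the values of the Apol genes was not tested. In such bulk samples fewer cells of a type and less RNA per cell cannot be told apart. B-cell identity genes had 0 of 17 called. Of 12 marginal zone markers 1, Plac8, was called higher, with a median log2 fold change of -0.03 over the list. Of 10 follicular markers 1, Cd55, was called lower, with a median of -0.18. No shift between these B-cell subsets is read from 1 gene of each list.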

How the data were processed

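Raw read counts by gene symbol were deposited for 12 libraries, prepared by QuantSeq 3′ mRNA-Seq (Lexogen) per the labels' protocols. The same table gives the authors' fold values, which are linear ratios between groups, per the file headers. Bowtie2, bedtools, edgeR and the GRCm38 (mm10) genome are named in the submitters' processing notes; versions, annotation, strand rule and the treatment of multi-mapped reads are not given in the sources used here. Other columns of the table were not used.

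Genes were filtered with filterByExpr (11857 kept), scaled with TMM and fitted with edgeR 4.0.16 (quasi-likelihood, R 4.3.3, limma 3.58.1) with 1 mean per group over all 12 libraries, 8 residual degrees of freedom, two-sided tests and Benjamini-Hochberg adjustment. Calls required an adjusted p under 0.05. CPM are relative to the scaled, filtered library size. DESeq2 1.42.0, other scalings, no filter, fewer libraries and a replicate block were alternatives. The fit was tested on simulated data. Replicates of a group differed by 5.351 to 72.62 times counting error (chi-square per degree of freedom), so none was a copy of another, and intervals from counts cover counting error only.

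Same-numbered libraries did not deviate together (r of -0.1 to 0.079 over 18 pairs), so replicate numbers were not treated as pairs. Positions and transcripts are from GENCODE (GRCm38), promoters from RefSeq (GRCm38.p6), aligned with Biopython 1.88; permutation tests used scipy 1.17.1. The genes named were the 6 apolipoprotein L genes, all other Apol genes, the 8 genes most and 4 least correlated with Apol7c (prior count 2), the 10 flanking genes, and of each list up to 4 called genes per direction by size of change plus defining markers. The Apol genes and all lists were chosen with earlier results of these data known.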

Additional observations from a re-analysis of the deposited data

Results flagged for a closer look

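Apol10b differed in sign between settings, and this is 1 pattern seen from both sides. The CpG-ODN effect with IM156 minus that without it was 2.69 ± 0.8491 (SE) on the log2 scale, and the IM156 effect with CpG-ODN minus that without it is the same number, 2.69. All 3 ODN+IM156 libraries (13, 12 and 18 counts) lay above all 3 IM156 libraries (8, 4 and 2 counts), whereas all 3 ODN libraries (7, 6 and 6 counts) lay below all 3 control libraries (13, 9 and 18 counts). The difference contains the comparison that chose these genes, so no p is given for it. Over all genes edgeR called 0 of 11857 in this difference, 1453 had an unadjusted p below 0.05, and DESeq2 called 151. Leaving out 1 library at a time gave 2.29 to 3.38.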

How the results depend on the processing

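In ODN+IM156 against IM156, all 19 alternatives called Apol7c and none called Apol10b. Reversed signs were seen for Apol7c in IM156 against control (-0.05 without control replicate 2, -0.13 without IM156 replicate 1; -0.13 to 0.25 leaving out 1 library) and for Apol10b in ODN+IM156 against control (-0.15 without control replicate 2, -0.04 without ODN+IM156 replicate 3; -0.15 to 0.38 leaving out 1 library); neither was called. Counts of all genes called moved more, and the cause was not tested. In ODN against control (1255) they were 598 with only those 2 groups fitted and 763 to 1874 leaving out 1 library at a time. In ODN+IM156 against IM156 (293) they were 652 without a filter, 892 with only those groups and 114 to 543 leaving out 1 library. In IM156 against control (0) they were 53 without a filter, 2 with DESeq2, 6 with only those groups and 0 to 1 leaving out 1 library. In ODN+IM156 against ODN (8) they were 664 without a filter, 373 with DESeq2, 1 with only those groups, 3 with the replicate block and 1 to 794 leaving out 1 library, the highest without ODN replicate 3. In ODN+IM156 against control (188) they were 531 without a filter, 324 with DESeq2, 396 with only those groups and 88 to 353 leaving out 1 library. In the difference of effects (0) they were 276 without a filter, 151 with DESeq2 and 0 to 260 leaving out 1 library. The replicate block changed no call of an Apol gene. The 8 genes most like Apol7c and the 4 least like it were the same with a prior count of 0.5. Counts of 4 to 116 over 12 libraries limit what can be said of 5 of the 6 genes.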

Other observations

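The promoters of 3 further Apol genes, Apol10a, Apol11a and Apol11b, each held a GAS match at 241 to 233 bases before the start and a single ISRE core within 51 bases of it; their counts over the 12 libraries were 1, 0 and 32. Apol11b had 13 counts in ODN+IM156, 12 in ODN, 3 in IM156 and 4 in control, summed over 3 libraries each. Apol8, whose promoter held neither motif, had 2, 0, 10 and 6 counts in the same groups, with IM156 libraries between 0 and 0.898 CPM.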
